A study of Homo sapiens with 6 samples.

Results

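Solute carriers are membrane proteins that move ions, metals, vitamins, sugars and organic acids across the plasma membrane and the membranes of organelles, and human genes for them are numbered SLC by family. Within a family the members usually share a fold and often a class of cargo, while the direction of transport and the membrane differ. In leukemia cells some of them are known for drug uptake, such as the reduced folate carrier that takes up methotrexate. The genes described here are the solute carriers outside the families that carry mainly amino acids, hexoses, mitochondrial metabolites or equilibrative nucleosides. They were chosen by symbol alone: SLC, a family number, a letter and a number with nothing after it, leaving out families 1, 2, 3, 6, 7, 25, 29, 36, 38 and 43. This gave 119 of the 11911 genes in the table, in 32 families. A further 9 rows carry an SLC symbol that goes on after the last number, such as SLC9A3R1, which encodes a scaffold protein, and were not counted.

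RNA was sequenced from RS4;11, an established line of human B-cell precursor acute lymphoblastic leukemia with a KMT2A::AFF1 fusion. One arm was 3 libraries of cells without asparagine, called depleted here, with RNA taken 16 hours after withdrawal. The other arm was 3 libraries of cells with asparagine. Standard culture used a DMEM and IMDM mixture with 10% serum, and the treatment entry, an asparagine-free medium with 10% dialyzed serum, is identical for both arms, so the labels do not say in which serum the cells with asparagine were kept. The depleted columns have a short name that may stand for asparaginase, which the labels do not settle. Separate cultures are not stated, and p-values measure only the spread between libraries of an arm, which may be technical. The B-cell precursor markers CD79A, CD79B, VPREB1, PAX5, EBF1, RAG1 and DNTT were all in the table, with summed levels of 2574 to 3099 CPM in depleted libraries and 2717 to 2805 CPM in libraries with asparagine. Of 11 markers of T, myeloid, erythroid, epithelial and fibroblast cells, 1 was in the table, COL1A1, at 0.938 to 2.35 CPM in depleted libraries and 3.61 to 4.47 CPM in libraries with asparagine.

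Values are normalized CPM (counts scaled to library size) as deposited, with 29971364 to 51127073 reads behind each library. Log2 fold changes are depleted minus with asparagine on the log2(CPM + 1) scale, which understates changes of low genes. They were tested with limma over 11892 genes, and a gene is called higher or lower at a Benjamini-Hochberg adjusted p under 0.05. Fold changes written as "-fold" are ratios of mean CPM, unless the log2 scale is named beside them. Depleted library 1 stood apart, with Pearson's r across genes (not independent replicates) of 0.940 and 0.933 to depleted libraries 2 and 3, against 0.996 between those. The difference ran with the GC content of transcripts. The value after a GC correction of each library is therefore given beside most of the solute carriers described. That correction acts on all libraries, so a difference between the arms that runs with GC content is removed as well.

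Of the 119 solute carriers, all of which passed the low-value filter, 32 were higher and 31 lower in depleted cells. That is 26.9% and 26.1% of them, close to the background of 25.1% and 26.2% of all genes called higher and lower (51.3% in either direction). Of the called members, 18 were higher and 11 lower by at least 2-fold on the log2 scale of the test. That is 15.1% and 9.24% of the 119, against 10.7% and 11.3% of all genes counted in the same way. Some called members of low level pass 2-fold only by the ratio of mean CPM and are not in these counts. Among them are SLC17A7, 2.64-fold higher, and SLC27A2, 2.33-fold lower. Groups did not overlap for 35 members with every depleted library higher and 39 with every depleted library lower, or 29.4% and 32.8%, against 30.2% and 30.8% of all genes. As a set the carriers thus moved about as often as other genes did, and their median log2 fold change was -0.10, beside 0.0098 for all genes tested. In bulk RNA, fewer cells of a kind and less RNA per cell cannot be told apart. The range over members was wide, from -2.78 for SLC19A1 to 2.87 for SLC16A6.

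The counts leaned on single libraries. Leaving out depleted library 1 gave 43 higher and 55 lower, against 40.5% and 41.3% of all genes (81.8% in either direction). Leaving out 1 of the other 5 libraries gave 18 to 23 higher and 17 to 24 lower. A group of 34 members, 17 higher and 17 lower, kept its call whichever library was left out. All 34 also had the same call after the GC correction. How many of all genes keep their call in this way was not counted, so the 34 have no background beside them. For the other 29 called members the call was lost without at least 1 library, and this is stated beside each one described. Counts by family, class or list below stand against 25.1% higher and 26.2% lower of all genes, or 35.1% and 34.4% after the GC correction. Positions below are on GRCh38 from GENCODE 29.

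**Figure D1:**
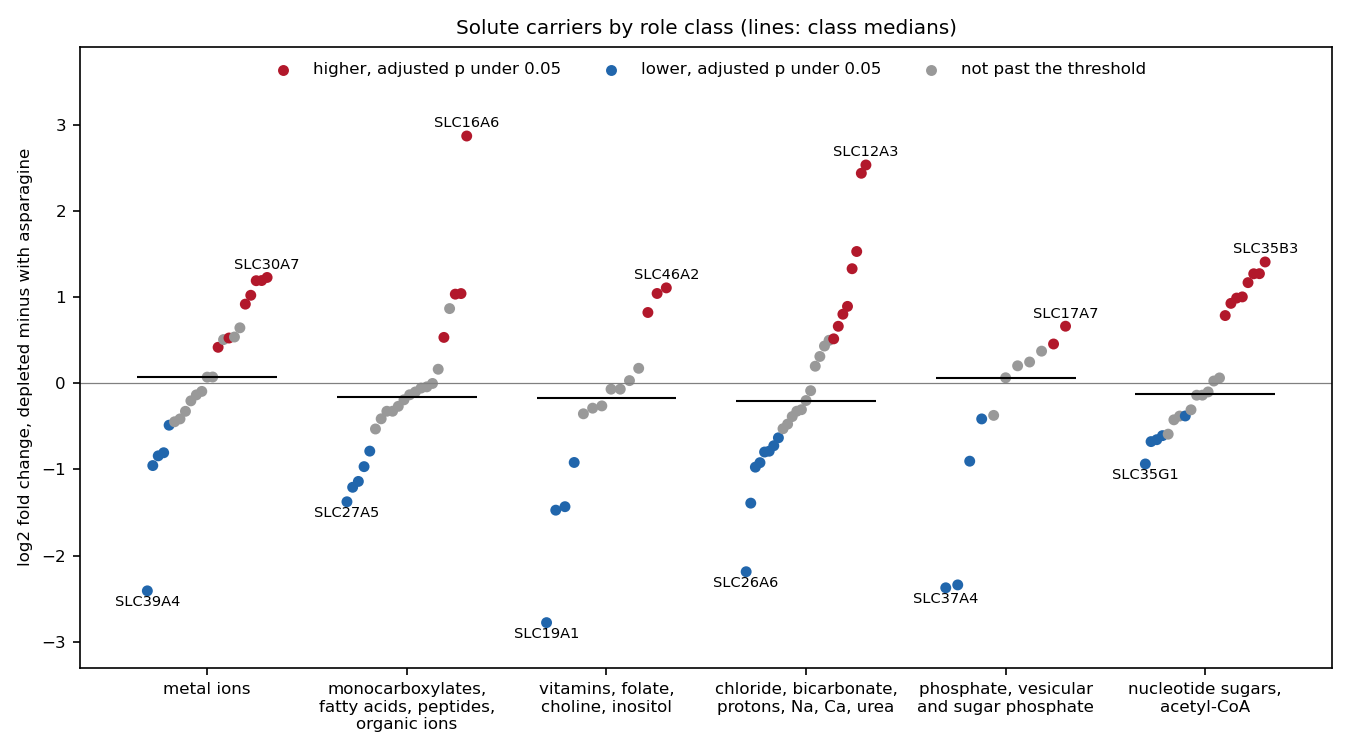
Log2 fold change (depleted minus with asparagine, vertical axis) of each of the 119 solute carriers, 1 point a gene, ordered by size within 6 role classes, with class medians as lines and the genes at both ends of each class named. Red points are higher and blue points lower at an adjusted p under 0.05, and every class holds both, from 2 higher and 4 lower in the phosphate class to 8 and 8 in the ion class.

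Zinc carriers form families of mostly opposite transport direction. Most SLC30 proteins move zinc out of the cytosol, over the cell surface or into vesicles, and SLC39 proteins move it into the cytosol. Of 6 SLC30 genes, 3 were higher and 0 lower, with log2 fold changes of 0.51 to 1.23 and a family median of 0.92. Of 11 SLC39 genes, 2 were higher and 4 lower, with a family median of -0.41 and a range of -2.41 to 1.02. The SLC30 median was 0.29 in depleted library 1 and 1.10 and 1.13 in libraries 2 and 3. After the GC correction it was 0.31, with the same 3 genes called higher, and the SLC39 median was -0.18. Whether the families differ was not tested.

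SLC30A1, the zinc exporter of the plasma membrane (chromosome 1, 211571568 to 211578742), had 22.2, 26.2 and 28.8 CPM in depleted libraries and 11.7, 9.84 and 10.5 CPM in libraries with asparagine. Every depleted library lay above every library with asparagine, a 2.41-fold higher mean (log2 fold change 1.19 ± 0.15, SE, adjusted p = 0.00129), and the GC-corrected value was 0.55. SLC30A7, a zinc carrier of the Golgi, had 39.3, 90.7 and 90.4 CPM in depleted libraries and 29.1, 24.2 and 33.7 CPM with asparagine. Its depleted library 1 lay well below the other two, and the log2 fold change was 1.23 (adjusted p = 0.0218), 0.50 after the GC correction. SLC30A4, which loads zinc into vesicles, had 10.7, 22.4 and 21.9 CPM in depleted libraries and 7.56, 6.67 and 7.05 CPM with asparagine, a log2 fold change of 1.19 (0.65 after the GC correction). The SLC30A7 call was lost when any 1 of 4 libraries was left out (adjusted p up to 0.0813, without library 2 with asparagine), and that of SLC30A4 without library 2 with asparagine (adjusted p = 0.0509). SLC30A5, SLC30A6 and SLC30A9 had log2 fold changes of 0.51, 0.54 and 0.64 and were not called, with GC-corrected values of 0.11, -0.10 and 0.059.

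Among the importers, SLC39A4, a zinc importer of the cell surface, had 28.8, 11.3 and 12.3 CPM in depleted libraries and 92.9, 92.9 and 81.9 CPM with asparagine. It fell 5.11-fold (log2 fold change -2.41 ± 0.33, SE, adjusted p = 0.00182), and the GC-corrected value was -1.64. SLC39A9, an importer known from the Golgi (chromosome 14, 69398015 to 69462388), had 132, 172 and 189.6 CPM in depleted libraries and 74.5, 79.9 and 84.99 CPM with asparagine, 2.06-fold higher (log2 fold change 1.02, adjusted p = 0.00299, GC-corrected value 0.80). SLC39A8, which also carries manganese, was 1.93-fold higher at 151, 228 and 232 CPM in depleted libraries, against 98.9, 107 and 111 CPM with asparagine (GC-corrected value 0.56). SLC39A14, a carrier of zinc, iron and manganese, was lower in all 3 depleted libraries by nearly the same amount, at 30.8, 30.5 and 31.7 CPM against 53.9, 55.1 and 56.1 CPM with asparagine (log2 fold change -0.81, adjusted p = 0.00183, GC-corrected value -0.47). SLC39A3 and SLC39A11 were also called lower (-0.96, GC-corrected -0.40, and -0.49), but each call was lost when any 1 of 5 libraries was left out (adjusted p up to 0.0895 and 0.110), and after the GC correction SLC39A11 was at -0.18 and not called. The remaining importers, SLC39A1, SLC39A6, SLC39A7, SLC39A10 and SLC39A13, were not called, and their log2 fold changes ran from -0.45 to 0.070. SLC39A6 had 60.7, 92.5 and 100.2 CPM in depleted libraries and 73.6, 78.1 and 84.6 CPM with asparagine, and after the GC correction it was lower by a call (-0.28, adjusted p = 0.0144). The correction also gave calls to SLC39A10, lower at -0.68, and SLC39A13, higher at 0.43, and none to SLC39A1 and SLC39A7 (-0.033 and -0.11).

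**Figure D2:**
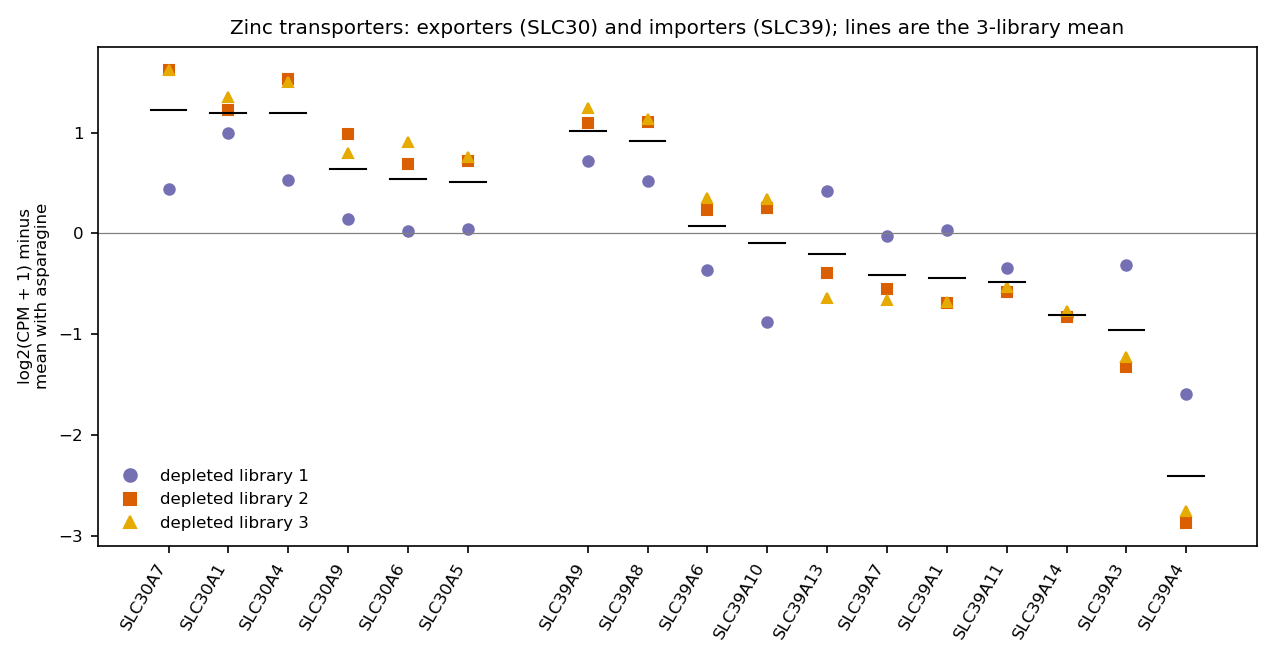
Difference of each depleted library from the mean with asparagine, in log2(CPM + 1), with a line at the mean of the 3. Shown are 6 SLC30 genes, mostly of zinc exporters (left), and 11 SLC39 zinc importers (right). All 6 SLC30 genes have means above 0, between 0.51 and 1.23, while importers spread from -2.41 to 1.02. Depleted library 1 (circles) often lies nearer to 0 than libraries 2 and 3.

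The other metal carriers had smaller log2 fold changes, from -0.84 to 0.52. SLC41A1, a magnesium carrier (chromosome 1, 205789093 to 205813748), had 39.8, 38.3 and 35.5 CPM in depleted libraries and 67.7, 70.4 and 67.8 CPM with asparagine (log2 fold change -0.84, adjusted p = 0.00173, GC-corrected value -0.68), while its relative SLC41A3 was not called (0.072) and was called higher with the GC correction (0.62, adjusted p = 0.000453). The copper importer gene SLC31A1 had 21.1, 23.5 and 23.6 CPM in depleted libraries and 28.4, 28.98 and 28.9 CPM with asparagine, without overlap, but did not pass (-0.33, adjusted p = 0.0568). After the GC correction it was called lower at -0.66 (adjusted p = 0.000751). SLC11A2, the divalent metal carrier that brings iron into the cytosol, had 33.9, 37.98 and 41.9 CPM in depleted libraries and 40.9, 41.97 and 42.004 CPM with asparagine, a difference of -0.14 with a 95% interval of -0.44 to 0.17 and no call. With GC content corrected it was called lower at -0.26 (adjusted p = 0.0118). SLC31A2 and the heme carrier gene SLC48A1 were called higher by 0.52 and 0.42 (GC-corrected 0.41 and 0.84), calls that were lost when any 1 of 5 libraries was left out (adjusted p up to 0.105 and 0.159), and SLC31A2 shares 63.1% of its exon bases with FKBP15 on the opposite strand. Over the class of 23 metal carriers, 7 were higher and 5 lower (9 and 8 after the GC correction), and the median was 0.070.

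Other genes of metal handling were taken from lists. Of 6 tested metallothioneins, their regulator MTF1 and the zinc carrier TMEM163 (10 listed), 0 were higher and 2 lower, MT1G and MT1X. The GC correction gave 1 higher and 2 lower. MT1X, a zinc-binding metallothionein, had 16.1, 13.7 and 11.6 CPM in depleted libraries and 34.97, 35.1 and 35.1 CPM with asparagine (-1.30, adjusted p = 0.000976), and MT1G was at -1.59. Of 12 iron and heme genes, 2 were higher and 4 lower (3 and 7 after the GC correction). TFRC, the transferrin receptor, had 42.04, 66.9 and 70.4 CPM in depleted libraries and 336, 350.3 and 384 CPM with asparagine, 5.97-fold lower (log2 fold change -2.59, adjusted p = 0.000306, GC-corrected value -3.03), and the endosomal iron reductase gene STEAP3 was at -1.87. Of 13 copper, manganese and magnesium partners, 2 were higher and 2 lower (5 and 4 after the GC correction). The copper pump gene ATP7A was at 1.14 (adjusted p = 0.0228, GC-corrected value 0.72). The copper chaperone gene COX17 was at -0.94 and not called, but was called lower after the GC correction (-1.17, adjusted p = 0.0308).

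Vitamin carriers held the largest fall of all members. SLC19A1, the reduced folate carrier that also takes up methotrexate (chromosome 21, 45493572 to 45544411), had 24.5, 12.4 and 15.1 CPM in depleted libraries and 127, 123 and 110.5 CPM with asparagine. Its highest depleted value was far below its lowest value with asparagine, a 6.94-fold fall (log2 fold change -2.78 ± 0.24, SE, adjusted p = 0.000412), and the GC-corrected value was -2.07. SLC46A1, the proton-coupled folate transporter, was low in both groups, at 1.81, 1.502 and 1.58 CPM in depleted libraries and 6.07, 5.68 and 6.56 CPM with asparagine, and fell 3.74-fold (-1.43, adjusted p = 0.000428, GC-corrected value -1.06). SLC5A6, which takes up biotin and pantothenate with sodium (chromosome 2, 27199587 to 27212958), had 60.5, 45.7 and 47.6 CPM in depleted libraries and 147, 151 and 132 CPM with asparagine, 2.79-fold lower (-1.47, SE 0.15, adjusted p = 0.000627, GC-corrected value -1.04). These genes share exon bases with neighbours on the opposite strand, and no strand setting is given: 14.01% of SLC19A1 with COL18A1, 56.4% of SLC46A1 with SARM1 and 7.37% of SLC5A6 with ATRAID, whose log2 fold changes were -2.11, -0.40 and -0.027. The riboflavin carrier gene SLC52A2 was called lower at -0.92, sharing 34.7% of its exon bases with FBXL6 (log2 fold change -0.74), but the value was -0.23 after the GC correction and the call was lost when any 1 of 5 libraries was left out (adjusted p up to 0.108, without depleted library 2).

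Higher members of the class were SLC23A1, SLC46A2 and SLC46A3. SLC46A3, a carrier of the lysosome membrane and a relative of the folate transporter, had 8.12, 11.8 and 11.96 CPM in depleted libraries and 3.49, 4.63 and 5.898 CPM with asparagine (1.04, adjusted p = 0.00858, GC-corrected value 0.64), and SLC46A2 had 3.05, 4.63 and 2.63 CPM against 0.928, 0.910 and 1.26 CPM (1.11, GC-corrected value 1.41). SLC46A2 shares 35.97% of its exon bases with SNX30 on the opposite strand (log2 fold change 0.84), and the part of those reads in its value was not tested. SLC23A1, a vitamin C carrier, was 1.84-fold higher (0.82, adjusted p = 0.00506, GC-corrected value 1.17), while the other vitamin C carrier SLC23A2 was at -0.070 (GC-corrected -0.12) and not called. The family SLC46 thus held calls in both directions. The choline transporter-like genes were not called: SLC44A2 had 413, 330.4 and 339 CPM in depleted libraries and 399, 384 and 349 CPM with asparagine (-0.069, 95% interval -0.38 to 0.24), and SLC44A1 had 48.9, 75.96 and 82.5 CPM and 78.6, 81.9 and 87.7 CPM. After the GC correction SLC44A2 was called higher at 0.26 (adjusted p = 0.00796) and SLC44A1 lower at -0.84. SLC5A3, SLC23A3, SLC45A4 and SLC50A1 were not called, at -0.36 to 0.17. All 4 gained a call with the GC correction, SLC5A3 and SLC50A1 as lower (-0.88 and -0.21) and SLC23A3 and SLC45A4 as higher (0.63 and 0.52). Of the 14 members, 3 were higher and 4 lower, and the median was -0.17. With GC content corrected, 6 were higher and 7 lower.

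Enzymes that use these vitamins were counted from a list. Among the 13 tested, 2 passed as higher and 6 as lower, with the same counts after the GC correction. HLCS, which attaches biotin to carboxylases, had 81.3, 96.9 and 89.6 CPM in depleted libraries and 16.8, 18.4 and 17.9 CPM with asparagine, 5.04-fold higher (2.27, adjusted p = 0.000101). Of 5 choline phospholipid genes, 3 were higher and 2 lower (2 and 2 after the GC correction). PEMT was at -1.33 (GC-corrected -0.71) and CEPT1 at 0.90, which was 0.27 and not called after the GC correction.

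**Figure D3:**
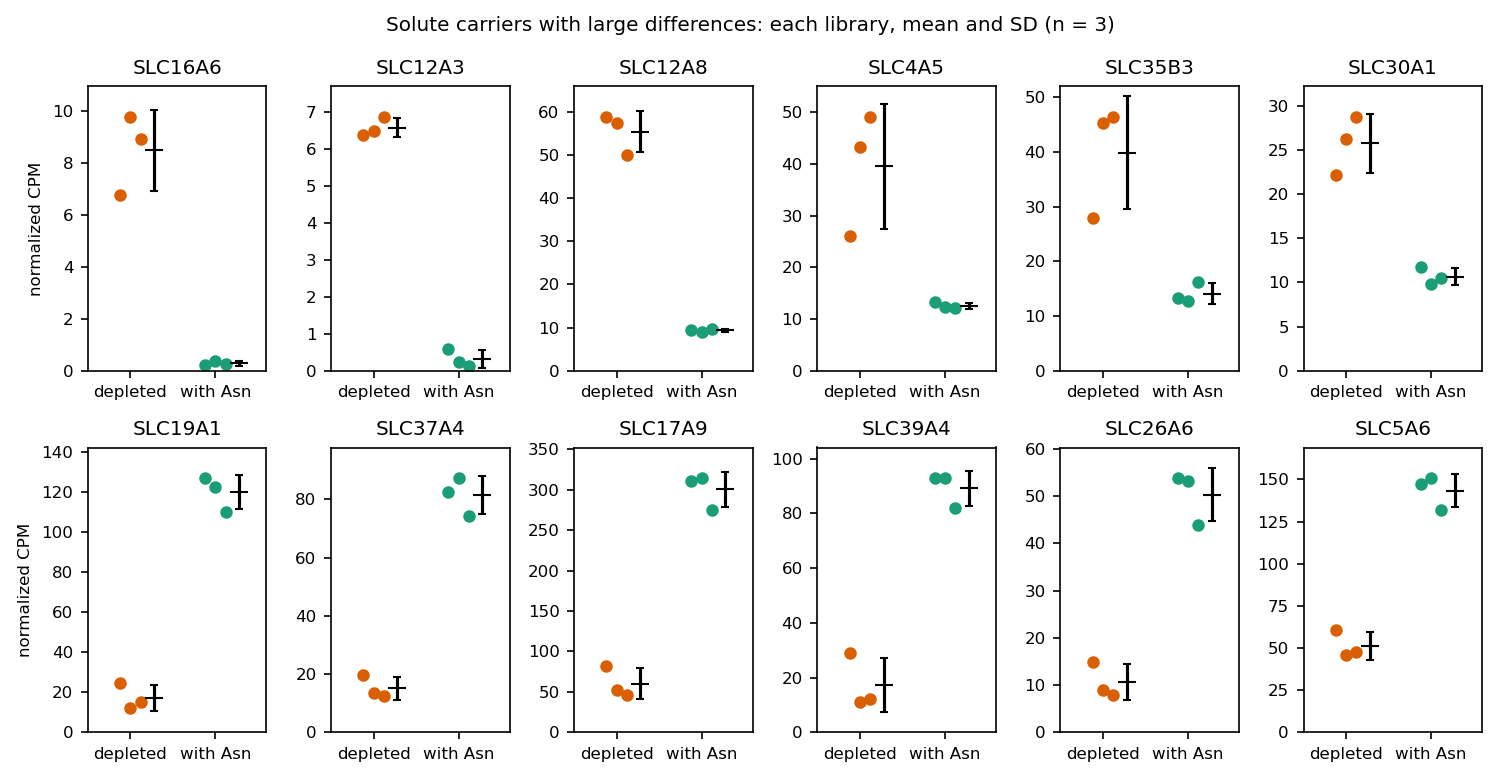
Normalized CPM (vertical axes, each from 0) of 12 solute carriers in the 3 depleted libraries (orange, left) and the 3 libraries with asparagine (green, right), with mean and SD beside the points. The upper row shows genes higher in depleted cells, such as SLC16A6 at 6.76 to 9.78 against 0.225 to 0.386, the lower row genes lower in them, such as SLC19A1 at 12.4 to 24.5 against 110.5 to 127, and the groups overlap in none of the 12.

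Among 8 monocarboxylate carriers of the SLC16 family, 2 were higher and 1 lower, and SLC16A6 had the largest log2 rise of all members. SLC16A6 (chromosome 17, 68267026 to 68291267), whose zebrafish relative exports ketone bodies from liver cells, had 6.76, 9.78 and 8.93 CPM in depleted libraries and 0.225, 0.386 and 0.259 CPM with asparagine. All 3 libraries with asparagine were below 1 CPM, and the mean was 29.3-fold higher in depleted cells (log2 fold change 2.87, SE 0.16, adjusted p = 0.000104, GC-corrected value 2.58). As a low gene it depends on the amount added before the log, with 4.01 at 0.25 CPM and 1.53 at 4 CPM. It shares 3.55% of its exon bases with ARSG on the opposite strand, and ARSG itself averaged 19.6 CPM in depleted cells and 2.04 CPM with asparagine (log2 fold change 2.75). No strand setting is given for the counting, so reads of such partners cannot be told apart. SLC16A4 was called higher at 0.53, which was 0.018 and no call after the GC correction and was lost when any 1 of 5 libraries was left out (adjusted p up to 0.136). SLC16A1, the main lactate carrier MCT1, had 132, 210.2 and 218 CPM in depleted libraries and 178, 187 and 204 CPM with asparagine, with the groups overlapping, a difference of -0.057 and a 95% interval of -0.55 to 0.44. After the GC correction it was lower by a call, at -0.37 (adjusted p = 0.00753). SLC16A5, SLC16A7, SLC16A8 and SLC16A13 were not called, at -0.043 to 0.87. With the GC correction SLC16A5, SLC16A8 and SLC16A13 were called higher, at 0.56, 0.81 and 0.76, where SLC16A5 and SLC16A8 had been slightly negative, and SLC16A7 was at 0.41 and not called. The SLC16 partners in lactate handling were lower in 3 of 4 and higher in 1 (3 and 0 after the GC correction). Of all genes, 26.2% were called lower and 25.1% higher. BSG, the chaperone that brings MCT1 to the surface, had 272, 154 and 160.2 CPM in depleted libraries and 651, 617 and 569.9 CPM with asparagine (-1.69, adjusted p = 0.00159), and LDHA, which makes lactate, was 3.402-fold lower (-1.76).

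Fatty acid transport proteins of the SLC27 family, which also act as acyl-CoA synthetases, were lower in 4 of 5 genes and higher in 0, with a family median of -0.97 (-0.55 after the GC correction). SLC27A4 had 31.7, 19.6 and 19.3 CPM in depleted libraries and 56.1, 54.5 and 45.1 CPM with asparagine, 2.21-fold lower (-1.14, SE 0.22, adjusted p = 0.00596, GC-corrected value -0.55). SLC27A5, the bile acid-CoA ligase of liver, had 6.57, 4.05 and 2.84 CPM in depleted libraries and 12.7, 11.7 and 13.8 CPM with asparagine (-1.38, -0.78 after the GC correction). SLC27A2 was near the filter at 0.704, 1.56 and 1.099 CPM against 2.45, 2.84 and 2.57 CPM (-0.79, GC-corrected value -0.86), and SLC27A3 was at -0.97 (-0.45 after the GC correction), a call lost when any 1 of 4 libraries was left out (adjusted p up to 0.0774). SLC27A5 shares 14.1% of its exon bases with ZNF446 and SLC27A2 shares 19.9% with ATP8B4, both on the opposite strand, with log2 fold changes of 0.034 and 1.67. SLC27A1 was not called at -0.27, and after the GC correction it was called higher at 0.37.

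Of the organic ion, bile acid and peptide carriers, SLC22A5 and SLC10A7 were higher. SLC22A5, which takes up carnitine, had 2.54, 2.94 and 3.27 CPM in depleted libraries and 1.18, 0.607 and 0.956 CPM with asparagine (1.04, adjusted p = 0.00275, GC-corrected value 1.24). SLC10A7 had 12.8, 25.97 and 27.2 CPM in depleted libraries and 10.2, 8.66 and 10.3 CPM with asparagine (1.03, 0.39 after the GC correction), and its call was lost when any 1 of 5 libraries was left out (adjusted p up to 0.0815). SLC15A4, a lysosomal carrier of histidine and peptides, had 44.1, 40.3 and 45.5 CPM in depleted libraries and 47.1, 49.5 and 43.2 CPM with asparagine and was not called (-0.10, GC-corrected value -0.060, 95% interval -0.40 to 0.19). SLC10A3, SLC15A2, SLC15A3, SLC22A16, SLC22A18 and SLC22A23 lay between -0.53 and -0.13 without a call. The GC correction turned SLC10A3 and SLC22A18 to calls as higher (0.36 and 0.33), gave SLC15A2 and SLC22A16 calls as lower (-0.41 and -0.42), and left SLC15A3 and SLC22A23 uncalled. Over the 22 members of the class with SLC16 and SLC27, 4 were higher and 5 lower, and the median was -0.16. The GC correction gave 9 higher and 8 lower.

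Ion carriers for chloride, bicarbonate, protons, sodium and calcium, counted with the urea carrier, numbered 27, of which 8 were higher and 8 lower, and the median was -0.20. SLC12, the cation-chloride family, had 3 higher and 3 lower of 8. SLC12A8 (chromosome 3, 125082636 to 125212864) had 58.9, 57.4 and 49.9 CPM in depleted libraries and 9.45, 9.04 and 9.72 CPM with asparagine. It rose 5.89-fold with little spread in either group (2.44, SE 0.13, adjusted p = 7.74e-05), and the value was 2.72 after the GC correction. SLC12A3, the thiazide-sensitive sodium chloride carrier known from the kidney tubule (chromosome 16, 56865207 to 56915850), had 6.38, 6.499 and 6.89 CPM in depleted libraries and 0.590, 0.248 and 0.139 CPM with asparagine. Its mean was 20.2-fold higher (2.53, SE 0.16, adjusted p = 0.000142, GC-corrected value 2.83, and 3.65 with 0.25 CPM or 1.29 with 4 CPM added).

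SLC12A2, the sodium-potassium-chloride carrier NKCC1, had 67.04, 110.1 and 119 CPM in depleted libraries and 64.6, 54.9 and 61.9 CPM with asparagine, a call at the edge (0.66, adjusted p = 0.0473, GC-corrected value 0.24) that was lost when any 1 of 5 libraries was left out (adjusted p up to 0.149). The potassium-chloride exporter genes SLC12A4 and SLC12A7 were lower at -0.79 and -0.97 (-0.31 and -0.36 after the GC correction), calls lost without library 1 or library 2 with asparagine (adjusted p up to 0.0609 and 0.0522). SLC12A9 had 108, 60.6 and 58.8 CPM in depleted libraries and 201, 202 and 176 CPM with asparagine (-1.39, adjusted p = 0.00432), -0.78 after the GC correction, and SLC12A5 was not called (-0.47, -0.036 after the GC correction). Of 5 tested kinases and partners that regulate these carriers, 4 were higher and 0 lower (4 and 1 after the GC correction). Among them were WNK4 at 1.04 (adjusted p = 0.0193, GC-corrected value 1.56) and CAB39 at 0.89 (GC-corrected 0.51). The list is short, and 25.1% and 26.2% of all genes were called higher and lower (35.1% and 34.4% after the GC correction).

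SLC26A6, an anion exchanger for chloride, bicarbonate and oxalate (chromosome 3, 48625723 to 48635493), had 14.9, 9.01 and 7.85 CPM in depleted libraries and 53.8, 53.2 and 43.9 CPM with asparagine, 4.75-fold lower (-2.19, SE 0.24, adjusted p = 0.000797, GC-corrected value -1.71). SLC26A2, the sulfate carrier, had 26.5, 49.02 and 50.9 CPM against 27.2, 27.1 and 31.04 CPM and was not called, with depleted library 1 below the range with asparagine and libraries 2 and 3 above it (GC-corrected value -0.058). SLC4A5, a sodium bicarbonate carrier, had 26.01, 43.3 and 49.1 CPM in depleted libraries and 13.3, 12.4 and 12.2 CPM with asparagine (1.53, adjusted p = 0.00281, GC-corrected value 1.71). It shares 16.5% of its exon bases with MTHFD2 on the opposite strand, a one-carbon enzyme gene at a mean of 534 CPM in depleted cells and 193 CPM with asparagine (log2 fold change 1.44), and the part of those reads in the SLC4A5 value was not tested. SLC4A7 had 72.4, 163 and 188 CPM in depleted libraries and 121, 88.9 and 137 CPM with asparagine, with overlapping groups and an interval of -0.67 to 1.07 on the log2 scale (GC-corrected value -0.18, no call). SLC4A2, the chloride-bicarbonate exchanger AE2, was called lower at -0.80, but at -0.15 after the GC correction, and the call was lost when any 1 of 5 libraries was left out (adjusted p up to 0.112).

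Of the sodium-proton exchangers, SLC9A8, known from the Golgi, had 80.5, 73.3 and 69.7 CPM in depleted libraries and 37.8, 42.96 and 38.3 CPM with asparagine (0.89, adjusted p = 0.00192, GC-corrected value 1.15). SLC9A5, which shares 10.5% of its exon bases with FHOD1 (log2 fold change -1.32), was called lower at -0.73, and the call was lost after the GC correction (-0.27) and when any 1 of 5 libraries was left out (adjusted p up to 0.0872). SLC24A1, a sodium-calcium-potassium exchanger, had 34.9, 38.6 and 35.5 CPM in depleted libraries and 21.001, 19.7 and 20.6 CPM with asparagine (0.80, 0.83 after the GC correction). SLC8A3, a sodium-calcium exchanger, was lower at 3.47, 3.56 and 2.6004 CPM against 6.72, 6.73 and 7.37 CPM (-0.92, adjusted p = 0.00292, GC-corrected value -0.83). SLC14A1, a urea transporter of red cells and kidney, had 4.53, 4.41 and 5.33 CPM in depleted libraries and 1.29, 1.13 and 1.45 CPM with asparagine, 3.68-fold higher (1.33, adjusted p = 0.000640, GC-corrected value 1.25). SLC26A9 was called lower near the filter (-0.63, GC-corrected -0.45), lost when any 1 of 3 libraries was left out (adjusted p up to 0.113) and after the GC correction. SLC4A8, SLC8B1, SLC9A3, SLC9A7, SLC9B2 and SLC26A1 were not called, at -0.53 to 0.31. With the GC correction SLC9A3 was called higher (0.32, against -0.31 without it), SLC9A7 and SLC9B2 lower (-0.36 and -0.59), and the other 3 were not called. Of 7 tested carbonic anhydrases, sodium pump subunits and other partners, 2 were higher and 4 lower (2 and 3 after the GC correction). The mitochondrial carbonic anhydrase gene CA5B was at 1.14 (adjusted p = 0.00299) and NEDD4L at -0.78.

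Phosphate uptake genes were both lower. SLC20A1, the sodium-phosphate carrier PiT-1 (chromosome 2, 112645857 to 112663827), had 84.1, 95.95 and 107 CPM in depleted libraries and 173, 192 and 173 CPM with asparagine, 1.88-fold lower (-0.91, SE 0.13, adjusted p = 0.00214, GC-corrected value -1.07). SLC20A2 was lower by less (-0.41, -0.63 after the GC correction), a call lost when any 1 of 5 libraries was left out (adjusted p up to 0.126). XPR1, the phosphate exporter, which is listed among 5 export and sensing genes, was the 1 called higher there. It had 45.2, 68.3 and 73.5 CPM in depleted libraries and 30.4, 30.6 and 35.99 CPM with asparagine (0.90, adjusted p = 0.0113). After the GC correction 4 of the 5 genes were called higher and 0 lower, with XPR1 at 0.40. That stands against 35.1% and 34.4% of all genes after the correction.

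SLC37A4, which carries glucose 6-phosphate into the endoplasmic reticulum (chromosome 11, 119024114 to 119030906), had 19.8, 13.4 and 12.4 CPM in depleted libraries and 82.6, 87.3 and 74.2 CPM with asparagine. It fell 5.37-fold in the mean (-2.37, SE 0.19, adjusted p = 0.000328, GC-corrected value -1.99). SLC37A4 shares 8.79% of its exon bases with TRAPPC4 on the opposite strand (log2 fold change -0.46). SLC17A9, which loads ATP into vesicles (chromosome 20, 62952647 to 62969585), had 82.6, 52.3 and 45.98 CPM in depleted libraries and 311, 314 and 275 CPM with asparagine, 4.98-fold lower (-2.34, adjusted p = 0.000512, GC-corrected value -1.77). SLC37A1 and SLC37A3 had 50.5, 33.6 and 32.5 and 17.7, 19.3 and 18.1 CPM in depleted libraries, against 30.4, 36.1 and 29.7 and 17.4, 16.5 and 18.9 CPM with asparagine, and were not called (0.25 and 0.063). The GC correction gave SLC37A1 a call as higher at 0.67 (adjusted p = 0.000186) and left SLC37A3 uncalled at -0.084. SLC37A2 and the vesicular glutamate carrier gene SLC17A7, both low, were called higher at 0.45 and 0.66 (GC-corrected 0.76 and 1.10), calls lost when any 1 of 4 libraries was left out (adjusted p up to 0.119 and 0.0748). SLC17A5, SLC18A2 and SLC18B1 were not called, at -0.37 to 0.37, and SLC18B1 was called lower with the GC correction (-0.87). Of these 11 genes, 2 were higher and 4 lower, and the median was 0.063 (GC-corrected -0.098).

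The SLC35 family was counted together with SLC33A1. Many of these carriers, but not all, supply nucleotide sugars, sulfate donors or acetyl-CoA to enzymes inside the endoplasmic reticulum and Golgi. The class follows the family number, so it also holds members without that known role. Of 22 genes, 8 were higher and 5 lower, and the median was -0.12 (GC-corrected 0.091). The 2 carriers of the sulfate donor PAPS had opposite calls. SLC35B3 (chromosome 6, 8411463 to 8435611) had 28.003, 45.2 and 46.5 CPM in depleted libraries and 13.4, 12.8 and 16.2 CPM with asparagine, 2.82-fold higher (1.41, SE 0.22, adjusted p = 0.00296, GC-corrected value 0.94). SLC35B2 had 43.6, 29.7 and 29.2 CPM in depleted libraries and 56.4, 57.2 and 49.7 CPM with asparagine (-0.68, -0.28 after the GC correction), a call lost when any 1 of 4 libraries was left out (adjusted p up to 0.0850). SLC33A1, which brings acetyl-CoA into the endoplasmic reticulum (chromosome 3, 155821024 to 155854456), had 50.2, 65.8 and 62.3 CPM in depleted libraries and 30.2, 30.2 and 31.4 CPM with asparagine (0.93, adjusted p = 0.00267, GC-corrected value 0.38).

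SLC35A3, a carrier of UDP-N-acetylglucosamine, had 30.1, 73.1 and 80.2 CPM in depleted libraries and 24.1, 18.3 and 26.5 CPM with asparagine, 2.66-fold higher in the mean (1.27, adjusted p = 0.0275). Library 1 of the depleted arm was close to the level with asparagine and the other two were not, and the value was 0.58 after the GC correction. SLC35F5 had 35.04, 70.8 and 80.96 CPM against 23.8, 21.1 and 26.7 CPM with asparagine (1.27, GC-corrected value 0.71), and SLC35A5 had 37.6, 67.9 and 71.98 CPM against 28.9, 26.5 and 28.5 CPM (1.00, GC-corrected value 0.61). SLC35D1, which carries UDP-glucuronic acid, and SLC35A1, which carries CMP-sialic acid, were higher at 0.99 (GC-corrected 0.52) and 0.78. The calls of SLC35A3, SLC35A1, SLC35A5, SLC35F5 and SLC35D1 were lost when any 1 of 5, 5, 4, 3 and 1 libraries was left out (adjusted p up to 0.0975, 0.0776, 0.0623, 0.0589 and 0.0542), and SLC35A1 was at 0.23 and not called after the GC correction. SLC35G2 was steadier, at 3.92, 3.801 and 4.16 CPM in depleted libraries and 1.21, 1.24 and 1.18 CPM with asparagine (1.17, adjusted p = 0.000613, GC-corrected value 0.83).

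Lower members of the family were SLC35F2, SLC35G1, SLC35C1 and SLC35B1 beside SLC35B2. SLC35F2 had 47.7, 56.3 and 52.9 CPM in depleted libraries and 83.02, 86.4 and 79.1 CPM with asparagine (-0.66, adjusted p = 0.00544, GC-corrected value -0.78), and SLC35G1 was at -0.94 (-1.52 after the GC correction), a call lost without library 1 with asparagine (adjusted p = 0.0540). SLC35B1, which exchanges ATP for ADP over the endoplasmic reticulum membrane, had 90.6, 72.5 and 73.6 CPM in depleted libraries and 100.1, 106 and 102 CPM with asparagine (-0.38, adjusted p = 0.0469, GC-corrected value -0.28), a call lost when any 1 of 5 libraries was left out (adjusted p up to 0.161). SLC35C1, the GDP-fucose carrier, was at -0.61 but at 0.091 and not called after the GC correction. With that correction and without depleted library 1 it was called in the opposite direction (0.29, adjusted p = 0.00827), and without the correction its call as lower was lost when any 1 of 4 libraries was left out (adjusted p up to 0.0916). SLC35A4 and SLC35C2 had 129, 92.9 and 97.6 and 113, 76.4 and 71.2 CPM in depleted libraries, against 147, 150.3 and 129 and 116, 112 and 105 CPM with asparagine, and were not called, nor were they with the GC correction (-0.10 and 0.0031). SLC35A2, SLC35B4, SLC35E1, SLC35E2, SLC35E3, SLC35E4 and SLC35F6 were not called either, at -0.59 to 0.061, and SLC35E2 is the 1 member with no GC value. Of these, the GC correction gave SLC35A2 a call as higher (0.40) and SLC35B4 and SLC35E3 calls as lower (-0.39 and -0.26). Of 11 enzymes that make nucleotide sugars, 2 were higher and 3 lower (3 and 5 after the GC correction). FPGT, which makes GDP-fucose, was 3.68-fold higher (adjusted p = 0.0185, GC-corrected value 0.96).

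Transcript GC content was a feature that the called members did not share across directions. Its median was 43.8% in the 32 higher members and 58.1% in the 31 lower ones, beside 45.3% and 56.3% in all genes called higher and lower and 49.9% in all genes with a value. After the GC correction 45 members were higher and 42 lower of 118, or 38.1% and 35.6%, against a background of 35.1% and 34.4% (69.5% in either direction). Of the 32 higher members 29 were again called higher and 3, SLC16A4 and SLC35A1 among them, were not called. Of the 31 lower members 27 were again called lower and 4 (SLC9A5, SLC26A9, SLC35C1 and SLC39A11) were not called. A further 16 were called higher and 15 lower that had no call without the correction, and 0 changed from one call to the opposite one with all 6 libraries. In 29 of the 119 members depleted library 1 differed in sign from libraries 2 and 3, and 0 of those were among the 63 called.

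**Figure D4:**
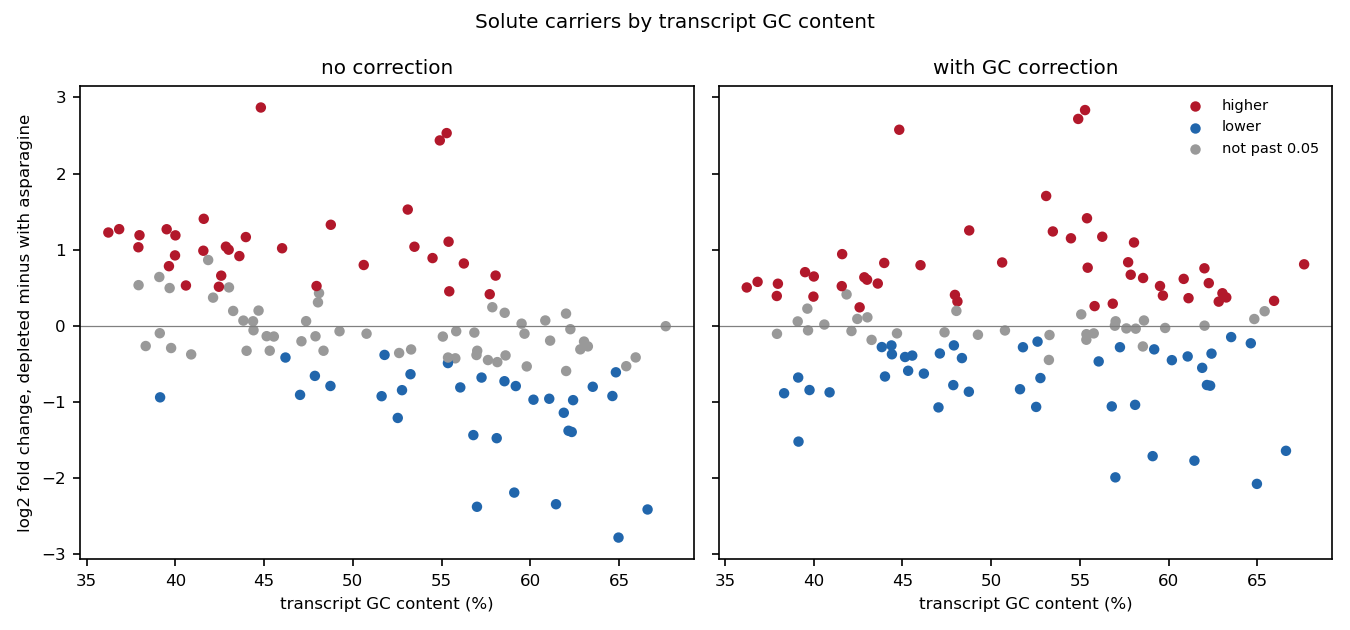
Log2 fold change (depleted minus with asparagine) of the solute carriers against the GC content of their transcripts in percent, without correction (left) and with the GC correction (right), red for called higher, blue for called lower and grey for no call. On the left the higher genes gather at low GC content (median 43.8%) and the lower genes at high GC content (58.1%), while SLC16A6, SLC12A3 and SLC12A8 (2.87, 2.53 and 2.44 on the left) are the highest 3 points in both panels and SLC19A1 is the lowest.

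Promoter sequence was read for the members with an entry in the RefSeq promoter table (GRCh38.p14), 96 of 119, over the 250 bases before the start. The 4 motifs searched on both strands were TGATGNAA (the ATF4 and C/EBP response element), CACGTG (the E-box bound by MYC and TFEB factors), TGCGCNC (a form of the metal response element core bound by MTF1) and TGACNNNGC (the antioxidant response element bound by NRF2), and matches of different motifs overlapped in 0 member promoters. They were present in 3.13%, 7.29%, 20.8% and 15.6% of the member promoters, against 3.19%, 6.49%, 16.9% and 11.0% of all 27305 promoters of the same length. The E-box was found in 0 of 28 higher, 4 of 25 lower and 3 of 43 uncalled members with an entry. A match is a description of letters, not a bound site. The promoters shown first belong to 2 zinc exporters that were higher and to the genes SLC12A3, which was near 0 with asparagine, and SLC37A4, which fell. Capitals mark a match to any of the 4 motifs, on either strand, and SLC12A3 and SLC37A4 have none in the stretch shown.
SLC30A1, chr1:211579162-211579311, minus strand: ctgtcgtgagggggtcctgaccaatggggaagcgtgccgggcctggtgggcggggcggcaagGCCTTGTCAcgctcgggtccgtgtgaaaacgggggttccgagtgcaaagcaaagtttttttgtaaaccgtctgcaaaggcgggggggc
SLC30A4, chr15:45522756-45522905, minus strand: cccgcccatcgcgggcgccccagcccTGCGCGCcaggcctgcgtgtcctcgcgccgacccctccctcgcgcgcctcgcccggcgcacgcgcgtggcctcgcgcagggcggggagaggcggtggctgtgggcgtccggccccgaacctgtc
SLC12A3, chr16:56865087-56865206, plus strand: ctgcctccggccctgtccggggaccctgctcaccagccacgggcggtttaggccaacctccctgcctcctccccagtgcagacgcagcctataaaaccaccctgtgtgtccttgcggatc
SLC37A4, chr11:119030878-119030997, minus strand: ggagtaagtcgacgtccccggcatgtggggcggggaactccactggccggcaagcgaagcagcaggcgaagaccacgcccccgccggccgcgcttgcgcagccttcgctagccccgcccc
All are written 5′ to 3′ in the direction of the gene and end 1 base before the start. The SLC30A1 stretch holds an antioxidant element match on the opposite strand, and the SLC30A4 stretch a metal response core match. Only the TGCGCNC form of the metal response core was searched, so lower case letters do not exclude another form, in SLC30A1 or elsewhere. The shares of promoters given for this core cover that form alone.

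The 4 lower members with an E-box are shown next around it, in stretches of 70 bases with the E-box in capitals.
SLC20A1, chr2:112645699-112645768, plus strand: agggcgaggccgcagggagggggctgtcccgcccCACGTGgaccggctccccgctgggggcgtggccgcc
SLC12A7, chr5:1112084-1112153, minus strand: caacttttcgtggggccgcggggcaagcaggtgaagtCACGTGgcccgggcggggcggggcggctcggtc
SLC39A11, chr17:73092689-73092758, minus strand: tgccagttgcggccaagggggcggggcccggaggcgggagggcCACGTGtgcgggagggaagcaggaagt
SLC9A5, chr16:67248889-67248958, plus strand: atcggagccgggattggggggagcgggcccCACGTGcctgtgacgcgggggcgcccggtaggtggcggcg
The E-box begins 206 bases before the start in SLC20A1, 53 in SLC12A7, 27 in SLC39A11 and 60 in SLC9A5. Their log2 fold changes were -0.91, -0.97, -0.49 and -0.73, and those of SLC39A11 and SLC9A5 were not called after the GC correction. The calls of SLC12A7, SLC39A11 and SLC9A5 were lost when any 1 of 2, 5 and 5 libraries was left out. That of SLC20A1 was kept whichever library was left out. Of the 3 uncalled members with an E-box, SLC26A2, SLC35A4 and SLC35E3, only SLC35E3 was called after the GC correction, lower at -0.26.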

How the data were processed

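RNA of 6 libraries of RS4;11 cells, 3 depleted of asparagine and 3 with it, was measured by sequencing. The signal values are gene-level normalized CPM as the authors deposited them. Per the submitters' processing notes, the tools included FastQC, STAR and featureCounts of Subread with build GRCh38, and neither the strand setting nor the normalization step is given in the sources used here. Within 1e-06, all values of a library were whole multiples of its smallest step, taken as 1 read, which gave the read numbers stated. Reads of rows absent from the table used here are not in them. Exon bases were shared with another gene of the table by 37 members, over 10% of their own in 14, and not every case is stated above.

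From these values, log2(CPM + 1) was computed and a gene was kept where 3 or more libraries reached 1 CPM. They were tested with limma 3.58.1 in R 4.3.3, with an intensity trend, over all 11892 genes kept, with Benjamini-Hochberg adjustment and a threshold of 0.05. The GC correction subtracts in each library a lowess curve (span 0.3) of its difference from the gene mean on transcript GC content, from GENCODE 29, for the 11371 genes of the table with a value. The fit was tested on simulated data. Detection is limited to 3 reads, 0.0598 to 0.0920 CPM in each library, and such limits cover counting error only. By rule, values are given for up to 6 called members per role class. These have at least 5 CPM and at least 2-fold change on the log2(CPM + 1) scale. Listed carriers of known role, the 2 most abundant uncalled members per class and 2 genes per list of related genes have values too. Other members with values were chosen after these were seen. The members, role classes and gene lists were chosen with earlier results of these data known. SLC16A3 and SLC40A1, which were looked for, are not analysed here. Some genes, solute carriers among them, are counted in the totals and not reported here.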

Additional observations from a re-analysis of the deposited data

How the results depend on the processing

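Of 44 solute carriers followed by rule through 22 alternatives, 29 were called, and 21 of these kept call and direction in every one, while 8 lost the call in at least 1 and 0 reversed. SLC12A2 and SLC35B1 lost theirs under several other scalings or fits, and 13 uncalled genes gained a call in at least 1 alternative. With the GC correction, with or without the replicate block, SLC39A6 turned to -0.28 and SLC44A2 to 0.26, and class medians moved to 0.040 for monocarboxylate and organic ion carriers, 0.071 for chloride and other ion carriers and 0.091 for nucleotide sugar carriers. With the correction and without depleted library 1, chosen after seeing the data, the count of solute carriers higher was 50 and of all genes higher 4487, these medians were 0.069, 0.077 and 0.19, the metal ion median was -0.088, SLC39A6 was at -0.21 and SLC44A2 at 0.31. A threshold of 0.01 left 17 carriers higher and 16 lower, and 1612 and 1703 genes. A filter at 5 CPM moved the phosphate and vesicular median to -0.39 and the vitamin median to -0.26, and quantile normalization moved the vitamin median to -0.12. Leaving out 1 library at a time gave 18 to 43 carriers higher and 17 to 55 lower, 1728 to 4812 and 1814 to 4913 genes, and medians of -0.39 to -0.15 for monocarboxylate, -0.011 to 0.29 for metal ion and -0.19 to -0.12 for vitamin carriers. The causes were not tested. No label says that the replicate numbers pair the libraries. After the gene means of each arm were subtracted, same-numbered libraries correlated at 0.083, -0.65 and 0.69. With 3 libraries per arm such values depend on each other, so they cannot settle whether the libraries pair. The replicate block gave 28 higher and 27 lower. The planned edgeR and DESeq2 fits were not run because the deposited values are normalized CPM. The whole steps recovered from them were used in a voom fit, chosen after seeing the data, which gave 31 higher and 30 lower. All-gene counts of the block and voom fits are not given here, so these carrier counts have no background beside them. Low genes such as SLC16A6 and SLC12A3 with asparagine rest on few reads, which limits their fold changes.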
